A study of Mus musculus with 18 samples.

Results

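Tight junctions seal the space between neighbouring epithelial cells. Claudins form their strands, occludin and tricellulin are membrane proteins of the same strands, and the adhesion protein Epcam binds claudin 7 and steadies it at the cell border. In the breast, a class of tumors with mesenchymal features is called claudin-low because it has lost claudins 3, 4 and 7, occludin, E-cadherin and Epcam. The 9 genes described here are Cldn1, Cldn3, Cldn4, Cldn7, Cldn8, Ocln, Epcam, Marveld2 (tricellulin) and F11r (junctional adhesion molecule A). They were taken by name from the 57126 genes of the table, and earlier results of these data were known when they were chosen. All 9 were measured in each of 18 mouse mammary tumors.

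The tumors were 7 of the MaP R172H/- genotype, 5 MaP R245W/- and 6 MaP -/-, the 6 being from 4 mice, and their total RNA was sequenced after removal of ribosomal RNA. MaP mice were F1 offspring of BALB/c and C57BL/6J parents, and their mammary ducts were injected with adenovirus carrying Cre recombinase. In recombined ductal epithelial cells the Trp53 locus then expressed p53R172H or p53R245W from 1 allele with no p53 from the other, or lost both alleles in MaP -/- tumors, while stroma and immune cells kept wild-type Trp53. YZ2, YZ6, YZ10, JM1233, JM1564 and RM0014 also carried a Cre-dependent tdTomato reporter at Rosa26, and no wild-type mammary gland was included. The MaP R172H/- libraries were read on a HiSeq and all others on a NovaSeq instrument, so this genotype and the instrument cannot be told apart. By the study's qPCR of Esr1, Pgr and Erbb2, all MaP R172H/- tumors were luminal B or HER2-enriched in molecular subtype. All tumors of the other genotypes were triple-negative, so subtype and this genotype cannot be told apart either. Levels are given as CPM, counts per 1000000 counts after TMM scaling of the library sizes over the 18 tumors, and total counts per tumor were between 23113578 and 37365062.

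Trp53, the targeted gene, was between 9.41 and 21.6 CPM in the 6 MaP -/- tumors. It was between 41.3 and 50.1 CPM in 6 of the 7 MaP R172H/- tumors, and 27.0, 27.6 and 58.9 CPM in JM1564, JM1126 and JM1133 of the MaP R245W/- group. The mutant-labelled libraries YZ11 (10.8 CPM), JM1233 (11.4 CPM) and RM0014 (9.08 CPM) did not exceed the highest MaP -/- tumor. The Trp53 level therefore does not check the genotype of these 3 libraries, and the counts of called genes are also given without them.

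The sequences shown first are the 250 bases upstream of the annotated start of Cldn3, Cldn4 and Cldn8, on the strand of the gene and from the GRCm39 genome with the GENCODE M39 annotation. Cldn3 and Cldn4 lie next to each other on chromosome 5, 39.3 kb apart with no other protein-coding gene between them, and both were lowest in the same 3 tumors. Cldn8 is shown because its pattern across the tumors was the least like that of the other 8 genes. Capitals mark CAGGTG or its reverse complement CACCTG, the E-box bound by the junction gene repressors of the Snai and Zeb families. The window of Cldn3 is chr5:135014818-135015067 (plus strand), that of Cldn4 chr5:134975789-134976038 (minus strand) and that of Cldn8 chr16:88360072-88360321 (minus strand).
Cldn3: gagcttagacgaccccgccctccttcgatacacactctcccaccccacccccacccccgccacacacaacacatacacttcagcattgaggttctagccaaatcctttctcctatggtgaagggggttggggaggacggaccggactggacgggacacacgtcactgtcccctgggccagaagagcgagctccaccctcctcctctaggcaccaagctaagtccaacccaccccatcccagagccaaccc
Cldn4: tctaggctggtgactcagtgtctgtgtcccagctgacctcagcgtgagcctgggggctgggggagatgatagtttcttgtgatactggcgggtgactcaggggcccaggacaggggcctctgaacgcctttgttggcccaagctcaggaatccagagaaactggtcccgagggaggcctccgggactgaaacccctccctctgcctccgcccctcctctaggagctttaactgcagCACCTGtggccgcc
Cldn8: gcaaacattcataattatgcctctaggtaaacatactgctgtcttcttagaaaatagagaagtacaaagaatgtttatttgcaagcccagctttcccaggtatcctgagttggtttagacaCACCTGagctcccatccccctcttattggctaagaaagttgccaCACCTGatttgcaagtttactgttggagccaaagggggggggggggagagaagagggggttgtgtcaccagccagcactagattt

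CAGGTG was found, on either strand, in 5 of the 9 windows, once each for Cldn4, Epcam and F11r, 2 times for Cldn8 and 3 times for Cldn7. Of 21685 windows of the same length before protein-coding genes, 17.6% held it. The windows of Cldn1, Cldn3, Ocln and Marveld2 did not hold these letters. AACNNGTT, the core letters of the site of the grainyhead-like activators, read the same on both strands and stood in none of the 9 windows and in 3.71% of all windows. These are matches of letters only. The windows of Cldn7, Epcam, Ocln and Marveld2 overlap exons of other transcripts of the same gene and are not shown. The printed window of Cldn3 overlaps an exon of Wbscr25, a long noncoding RNA on the opposite strand, and that of F11r an exon of Gm26641.

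In 3 of the 18 tumors, 1 of each genotype, most of the 9 junction genes were far below their level in the other tumors: YZ7 (MaP R172H/-), JM1233 (MaP R245W/-) and JM779-T1 (MaP -/-). A tumor was described as low for a gene at or below 25% of the median of the 18 tumors, and as claudin-low in pattern when it was low for at least 3 of the 5 genes Cldn3, Cldn4, Cldn7, Ocln and Epcam. Each of the 3 tumors was low for all 5, and for 8, 8 and 9 of the 9 genes in YZ7, JM1233 and JM779-T1. No other tumor was low for more than 1 of the 5. Because the tumors were set apart by these values, the values are a description without a test, and the tumors are treated one by one. In bulk tissue, fewer epithelial cells and less junction RNA per epithelial cell cannot be told apart.

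The mean log2 CPM of Cldn3, Cldn4 and Cldn7 was 0.80 in JM779-T1, 1.79 in JM1233 and 1.94 in YZ7. The next tumor was JM833-T2 (MaP -/-) at 4.63, a step of 2.69 on the log2 scale, followed by JM663-T2 at 5.60 and JM833-T1 at 5.78. YZ11 (MaP R172H/-) was the highest at 8.73. The lower end of the order thus held a tumor of each genotype, and the 3 tumors next in order were MaP -/- tumors. JM833-T2 was low for Cldn4 alone among the 5 genes, at 18.5% of the 18-tumor median. With the limit at 50% of the median in place of 25%, JM833-T2 and JM663-T2 were also described as claudin-low in pattern, which gave 5 tumors.

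**Figure D1:**
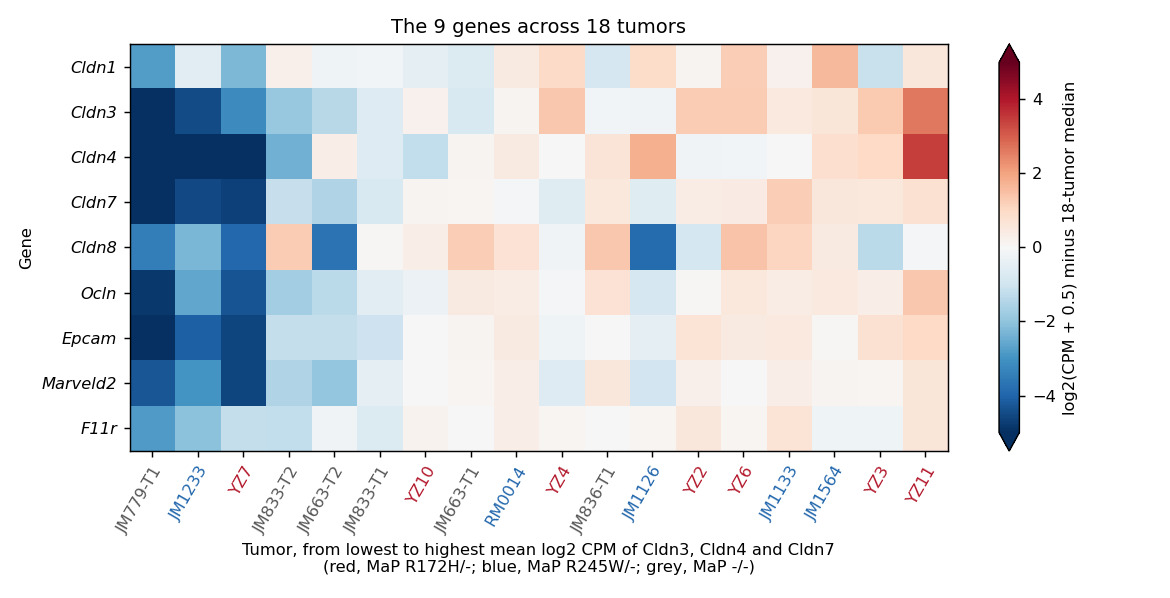
Log2(CPM + 0.5) of the 9 genes minus the median over 18 tumors (color), with tumors as columns from the lowest to the highest mean log2 CPM of Cldn3, Cldn4 and Cldn7 and genes as rows. JM779-T1, JM1233 and YZ7, the leftmost 3 columns, are below the median for all 9 genes, and JM663-T2 and JM1126 share their low Cldn8.

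Claudins 3, 4 and 7 are the barrier claudins whose loss names the class. In MaP R172H/- tumors Cldn3 was lowest in YZ7 at 6.88 CPM, with a median of 161.6 and a highest value of 413.8 CPM in YZ11. In MaP R245W/- tumors it was 2.53 CPM in JM1233, 101.2 in JM1564, 73.9 in RM0014, 59.2 in JM1126 and 93.3 in JM1133. In MaP -/- tumors it was lowest in JM779-T1 at 0.710 CPM, with a median of 32.0 and a highest value of 59.8 CPM in JM836-T1. In each genotype 1 tumor was far below the others. Of the 7 MaP R172H/- tumors, 6 were above the highest MaP -/- tumor and 5 above the highest MaP R245W/- tumor. YZ10 (77.1 CPM) lay within the MaP R245W/- range. The group median was 23.5, 29.2 and 45.1 times the level of YZ7, JM1233 and JM779-T1.

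Cldn4 was 1.93 CPM in YZ7 against a median of 113.5 and a highest value of 1362 CPM, in YZ11, among MaP R172H/- tumors. In MaP R245W/- tumors it was 3.30 CPM in JM1233, 225.7 in JM1564, 169.7 in RM0014, 427.3 in JM1126 and 121.5 in JM1133. In MaP -/- tumors it was 2.002 CPM in JM779-T1, with a median of 107.8 and a highest value of 196.4 CPM in JM836-T1. Cldn4 was the gene whose low values lay nearest to each other, between 1.93 and 3.30 CPM, and the other 15 tumors began at 22.96 CPM. YZ11 stood alone at the upper end, and JM1126 was the next tumor.

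Cldn7, the claudin that Epcam binds, was 2.67 CPM in YZ7, 3.07 in JM1233 and 1.26 in JM779-T1. The other 15 tumors ranged from 27.9 CPM in JM663-T2 to 187.4 in JM1133, so the 2 ranges did not overlap. The same was so for Ocln, Epcam and Marveld2 in addition to Cldn3 and Cldn4. Ocln was at most 5.54 CPM (JM1233) in the 3 tumors and at least 10.6 (JM833-T2) in the others. Marveld2, the tricellulin of the points where 3 cells meet, was at most 5.27 CPM (JM1233) and at least 11.5 (JM663-T2). These are values on either side of the limit, which the description itself set for all but Marveld2.

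Epcam was 24.5 CPM in YZ7, with a median of 804.2 and a highest value of 1177 CPM in the MaP R172H/- group. In MaP R245W/- tumors it was 34.7 CPM in JM1233, 622.5 in JM1564, 814.7 in RM0014, 425.0 in JM1126 and 823.6 in JM1133. In MaP -/- tumors it was 10.2 CPM in JM779-T1, with a median of 276.0 and a highest value of 660.8 CPM. Outside the 3 tumors, Epcam ranged from 258.8 CPM in JM663-T2 to 1177 in YZ11. It was also the most abundant of the 9 genes per length, with a median of 229.4 CPM per kb of exon, above Cldn4 in 16 of 18 tumors.

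Per kb of exon, the medians over 18 tumors were 68.5 for Cldn4, 53.1 for Cldn3, 46.9 for F11r, 38.1 for Cldn7, 13.2 for Marveld2, 7.30 for Cldn1, 4.38 for Cldn8 and 3.86 CPM per kb for Ocln. Several neighbours in this order were not separated. Cldn4 exceeded Cldn3 in 10 of 18 tumors, Cldn3 exceeded F11r in 9, and Marveld2 exceeded Cldn1 in 9. F11r exceeded Cldn7 in 13, Cldn1 exceeded Cldn8 in 13, and Cldn8 exceeded Ocln in 12, while Cldn7 exceeded Marveld2 in 17.

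**Figure D2:**
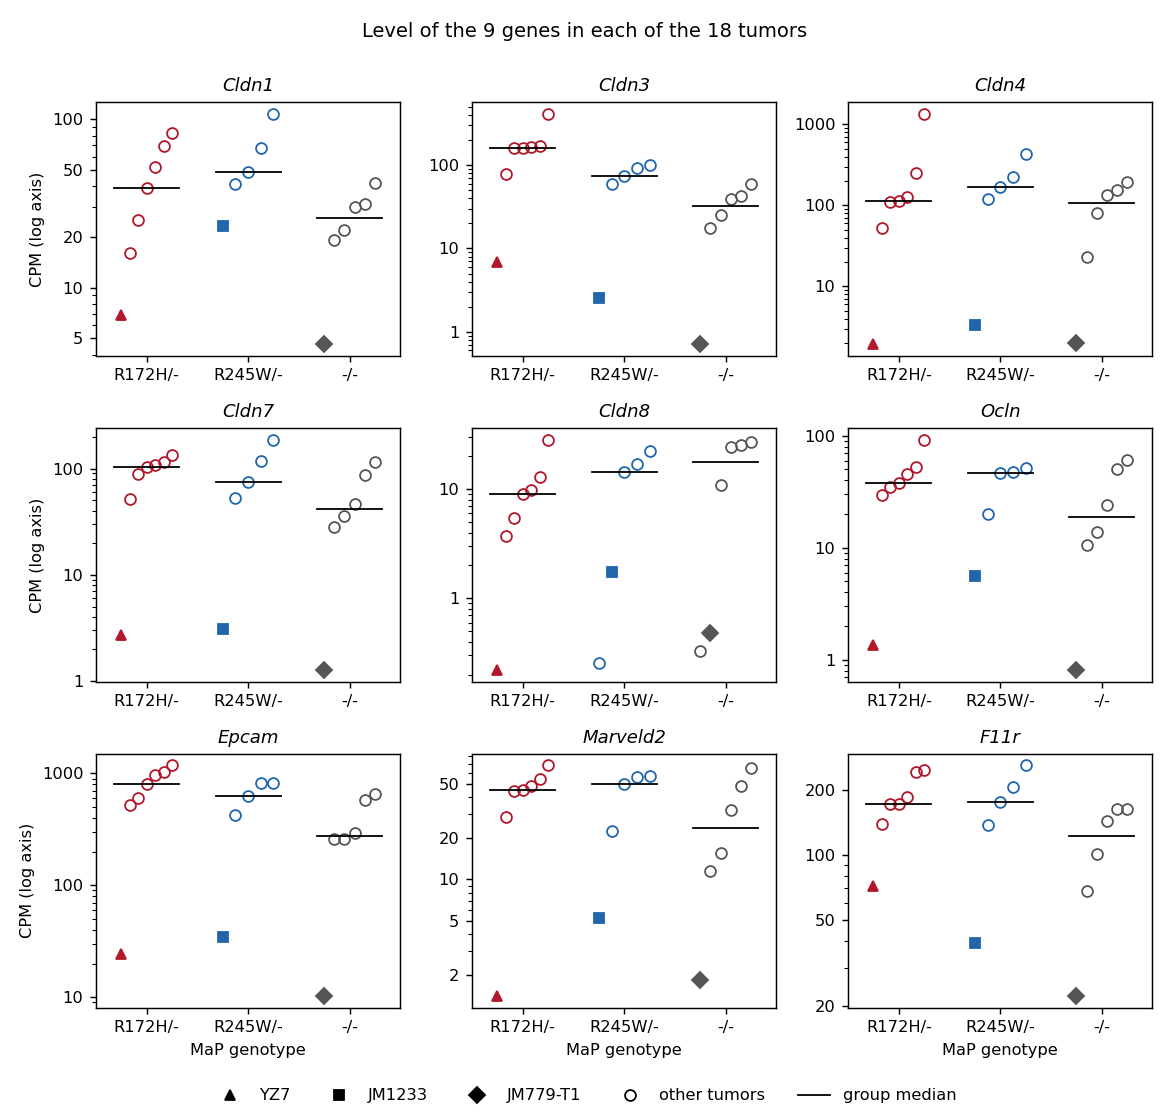
CPM (log axis) of each of the 9 genes in every tumor, by MaP genotype; lines are group medians, open circles single tumors, and filled symbols YZ7, JM1233 and JM779-T1. For Cldn3, Cldn4, Cldn7, Ocln, Epcam and Marveld2 the 3 filled symbols sit below all open circles, and for Cldn8 JM1126 and JM663-T2 sit among them.

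For Cldn1, F11r and Cldn8 the levels of the 3 tumors overlapped those of other tumors. Cldn1, a barrier claudin of many epithelia, was 6.93 CPM in YZ7 and 4.62 in JM779-T1 but 23.4 in JM1233, above YZ3 at 16.0 CPM. F11r, an adhesion molecule found on epithelial cells and also on endothelial cells and leukocytes, was 71.7 CPM in YZ7, above JM833-T2 at 68.2. It was 39.2 CPM in JM1233 and 22.2 in JM779-T1, the lowest values of the 18. Relative to the 18-tumor median, the least reduced of the 9 genes in YZ7 was F11r, at 44.2% of it, and in JM1233 it was Cldn1, at 66.1%.

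Cldn8, a barrier claudin with restricted tissue distribution, was near 0 in 4 tumors: 0.219 CPM (5 counts) in YZ7, 0.255 (8 counts) in JM1126, 0.329 (10 counts) in JM663-T2 and 0.484 (15 counts) in JM779-T1. JM1233 came next at 1.73 CPM, and YZ6 was highest at 28.5. JM1126 and JM663-T2 were not claudin-low in pattern. JM1126 had 427.3 CPM of Cldn4 and 425.0 of Epcam beside its 0.255 CPM of Cldn8. Among the 36 pairs of the 9 genes, Spearman's rho over 18 tumors ran from 0.12 (Cldn4 and Cldn8) to 0.91 (Cldn7 and Marveld2), with a median of 0.62. The median rho with the other 8 genes was lowest for Cldn8 (0.37) and Cldn1 (0.40) and highest for Epcam (0.78). These correlations are descriptions over tumors that share genotype, instrument and mouse in part.

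The MaP -/- mice JM663 and JM833 each gave a tumor T1 and a tumor T2. In JM663, Cldn8 was 24.5 CPM (676 counts) in T1 and 0.329 CPM (10 counts) in T2, a 74.5-fold difference. Marveld2 was 4.20 times, Ocln 3.62 times, Cldn7 3.09 times and Epcam 2.55 times higher in T1, while Cldn4 was 135.4 and 156.4 CPM and F11r 162.3 and 143.1 CPM. Vim, an intermediate filament of mesenchymal cells, was 279.6 CPM in T1 and 1604 in T2. In JM833, T2 was lower for Cldn4 (80.2 and 22.96 CPM), Cldn3 (42.8 and 17.5 CPM) and Ocln (24.2 and 10.6 CPM) but higher for Cldn8 (10.9 and 25.4 CPM). Tumors of the same mouse and genotype therefore differed by as much as 74.5-fold in a junction gene, with 1 tumor a side and no replicate of either.

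Both mutant genotypes were set against MaP -/-, the question being whether a p53 mutant alters the junction genes relative to loss of p53. None of the 9 genes was called at an FDR below 0.05 in MaP R172H/- against MaP -/- tumors by edgeR's quasi-likelihood test, where 8.4% of the 20954 genes tested were called (3.67% higher and 4.73% lower). None was called in MaP R245W/- against MaP -/- tumors, where edgeR called 0% of 21452 genes and 11.8% had an unadjusted p below 0.05. The share of 0% depended on the test, as the DESeq2 Wald test called 170 of 24332 genes higher and 257 lower there. None was called in MaP R172H/- against MaP R245W/- tumors, where 9.4% of 22481 genes were called (2.91% higher and 6.49% lower). An unadjusted p below 0.05 by the same edgeR test was found for 1, 1 and 0 of the 9 genes. Over all genes tested the shares were 24.7%, 11.8% and 25.9%. Without YZ11, JM1233 and RM0014 the counts of called genes among the 9 were also 0, 0 and 0. Over all genes, 520 of 20745 were then called higher and 807 lower in the first comparison. In the second 0 of 22684 were called, and in the third 225 of 23651 were called higher and 861 lower.

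The gene with the smallest p was Cldn3 in MaP R172H/- against MaP -/- tumors. Its mean was 164.5 ± 125.6 CPM (SD, n = 7) against 30.8 ± 20.8 CPM (SD, n = 6), with a log2 fold change of 2.45 (SE 0.82) and an edgeR FDR of 0.083. Of the 7 MaP R172H/- tumors, 6 were above the highest MaP -/- tumor, and YZ7 was below the 5 highest MaP -/- tumors. Without YZ7 the edgeR FDR was 0.033 and the log2 fold change 2.66, and without YZ11 they were 0.15 and 2.01. The DESeq2 Wald test gave an adjusted p of 0.014, and the exact rank sum test an FDR of 0.14, so the call depended on the test and on 1 tumor. Instrument, molecular subtype and genotype cannot be told apart here.

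Of the 9 genes, 8 had a log2 fold change above 0 in MaP R172H/- against MaP -/- tumors, with a median of 0.76 where the median of all genes was 0.0027. In MaP R245W/- against MaP -/- tumors these were also 8 of 9, with medians of 0.66 and 0.020. The 2 comparisons share the MaP -/- tumors. Cldn8 was the exception in both, at -0.53 (SE 0.95) and -0.41 (SE 1.15). Cldn1 in MaP R245W/- tumors had the only other unadjusted p below 0.05, with a log2 fold change of 1.205 (SE 0.49) and an edgeR FDR of 0.39. Epcam had log2 fold changes of 1.12 (SE 0.76, FDR 0.38) and 0.66 (SE 0.82, FDR 0.77).

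The log2 fold change of Cldn4 in MaP R172H/- against MaP -/- tumors was 1.57 (SE 1.10), and without YZ11 it was 0.16. Ocln and Marveld2 were at 0.69 and 0.54 with SE of 0.80 and 0.73, and F11r was at 0.70 with the smallest SE, 0.39. In MaP R172H/- against MaP R245W/- tumors, 6 of 9 were above 0 with a median of 0.12, and Cldn3 had the largest value, 1.32 (SE 0.87, edgeR FDR 0.36). In no comparison were the 2 groups apart for any of the 9 genes. The SE of the 27 fold changes ran from 0.39 (F11r) to 1.15 (Cldn8), and differences near these sizes were not detectable with this spread between tumors.

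**Figure D3:**
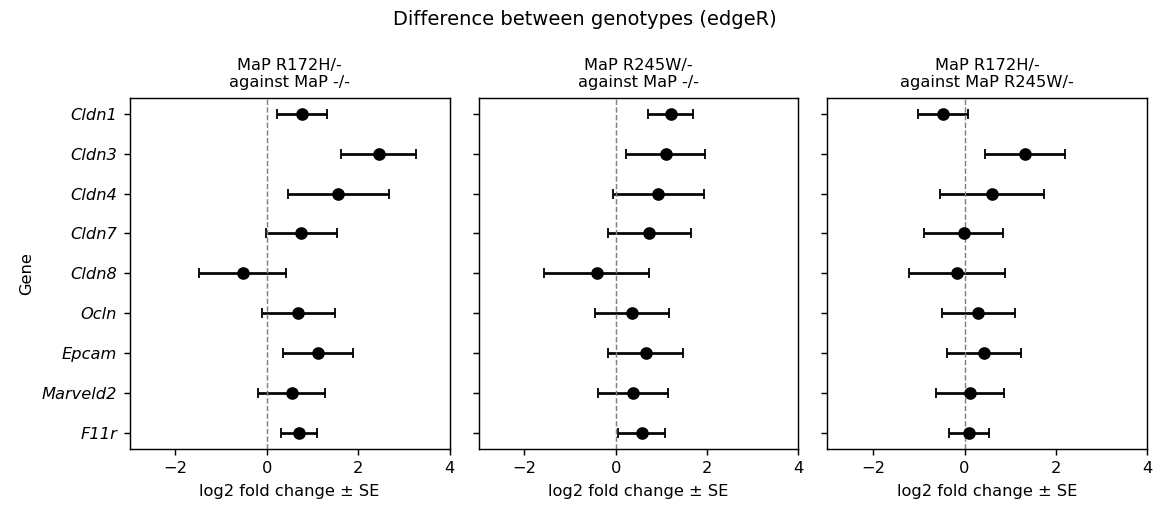
Log2 fold change (points) with its SE (bars) from edgeR for the 9 genes in the 3 comparisons; the dashed line is no difference. Points lie between -0.53 and 2.45, and Cldn3 in MaP R172H/- against MaP -/- tumors is the farthest from 0.

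The 3 tumors differed in what else was low. E-cadherin (Cdh1), the adhesion protein of adherens junctions, was 8.10 CPM in JM779-T1 and 40.2 in JM1233, the lowest values of 18, but 214.8 CPM in YZ7, more than in JM663-T2, JM833-T1 and JM833-T2. The luminal keratin Krt8 was 17.98 CPM in YZ7, 25.1 in JM779-T1 and 214.2 in JM1233, against 234.0 in the next tumor. The group median was 39.8 times the level of YZ7 for Krt8 and 2.35 times for Cdh1. In YZ7 the keratins and the junction genes were therefore low beside a level of Cdh1 within the range of the other tumors. Vim was 4509 CPM in JM779-T1 and 2344 in JM1233, the highest values of 18, against a median of 541.8. In YZ7 it was 1355 CPM, above this median but below JM1126 (1732) and JM663-T2 (1604).

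Relative to the sum of Krt8 and Krt18, Cldn3, Cldn4, Cldn7 and Epcam were lowest of 18 in JM1233, at 2.38, 2.53, 2.20 and 1.98 below the median on the log2 scale, and second lowest in JM779-T1. In YZ7 the ratios of Cldn3, Cldn7 and Epcam to the keratins were 1.59, 0.32 and 0.21 above the median, and that of Cldn4 was 0.49 below it. Relative to Cdh1 the order changed. In YZ7 Cldn3, Cldn4, Cldn7, Ocln, Epcam and Marveld2 were each the lowest of 18, by 2.47 to 4.82 on the log2 scale below the median. In JM779-T1 the ratio of Epcam to Cdh1 was at the median (0.0034 below), and that of Marveld2 was 1.58 above it. In JM1233 the ratios to Cdh1 were below the median for Cldn3 (1.33), Cldn4 (1.75), Cldn7 (1.06) and Epcam (0.60) and above it for the other 5 genes. JM1233 was thus low for these 4 genes relative to both references, JM779-T1 mainly relative to the keratins and YZ7 mainly relative to Cdh1.

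Markers of other cell types were measured in the same libraries, and their part in the low levels was not tested. The summed CPM of 7 luminal epithelial markers was 138.1 in YZ7, 151.9 in JM779-T1 and 396.9 in JM1233, the lowest of 18, with medians of 2468, 1237 and 3612 in the MaP R172H/-, MaP -/- and MaP R245W/- groups. Foxa1 was at 0 in YZ7 and no other marker of this list was at 0 in a tumor. Not every marker of the list followed the sum. Gata3 was 1.32 CPM in YZ7, but 9.56 in JM1233 and 19.2 in JM779-T1, above JM1564 (2.72) and JM836-T1 (7.10). Elf5 was 7.86 CPM in JM1233 and 6.88 in JM779-T1, but 74.5 in YZ7, above YZ3 (56.5) and JM836-T1 (65.4). The other cell type lists did not share an order over these tumors. JM1233 had the highest sums of leukocyte (1744) and skeletal muscle markers (911.0) and the second highest of fibroblast markers (13785). YZ7 had the second lowest fibroblast sum (2749) and a leukocyte sum of 362.0, near the lower end, and JM779-T1 had sums of 4235 and 896.9. The fibroblast markers of JM779-T1 went in opposite directions. Its Pdgfra (975.0 CPM) was the highest of 18, with JM1126 next at 529.7, while its Col1a1 (364.1) and Col1a2 (294.9) were the lowest.

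Basal epithelial markers were 1724 CPM in YZ7, second highest after YZ4 (3096), 552.1 in JM1233 and 44.3 in JM779-T1, the lowest. In YZ7 the sum held 1149 CPM of Acta2, 308.0 of Myh11 and 187.4 of Trp63, which encodes the basal cell regulator p63. This was the highest Trp63 of the 18 tumors, against a median of 4.20, and YZ4 (119.5) and JM1233 (51.7) came next. In JM1233 the sum held 457.6 CPM of Acta2. The basal keratins Krt14 and Krt17 did not follow the sum in YZ7. Krt14 was 34.2 CPM there, the lowest of the 7 MaP R172H/- tumors, against a group median of 186.3. Krt17 was 10.9 CPM, also the lowest of this group, and Krt5, a further basal keratin, was 34.3 CPM. JM1233 had no counts of Krt5, and JM779-T1 had 2.16 CPM.

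The histology given for the tumors was nonmetaplastic adenocarcinoma for YZ7 and metaplastic sarcomatoid carcinoma for JM1233. Their molecular subtypes in the study were luminal B for YZ7 and triple-negative for JM1233. The same metaplastic type was given for JM1133, RM0014 and both JM663 tumors, none of which was claudin-low in pattern. JM1126, described as a sarcoma, had the Cldn4 and Epcam levels above. The histology of JM779-T1 and JM836-T1 is not given here, because the labels name tumor T1 of these mice where the study's description marks T2 as the one sequenced. Which tumor of its mouse the library labelled JM779-T1 comes from is therefore uncertain.

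Next came 6 repressors of junction genes and 14 epithelial regulators, most of them transcription or splicing factors. Zeb1 was highest in JM1233 (202.2 CPM) and JM779-T1 (144.6), followed by JM663-T2 (142.9) and YZ7 (131.1), against a median of 34.2. Zeb2 was 532.0 CPM in YZ7, the highest of 18, 247.2 in JM1233 and 211.0 in JM779-T1, against a median of 133.0. Snai1 was highest in JM779-T1 (23.02 CPM), but 6.31 in YZ7 and 7.35 in JM1233 lay near the median of 6.83. Twist2 was 32.0 CPM in JM779-T1, 3.28 in JM1233 and 0.219 in YZ7. Snai2 was 13.2 CPM in YZ7, 6.49 in JM1233 and 5.10 in JM779-T1, above the median of 2.20. Twist1 was 3.86, 6.22 and 11.3 CPM in the same order, below the median of 13.6. All 3 tumors were among the 4 highest for Zeb1, and they differed in Zeb2, highest in YZ7, and in Twist2 and Snai1, highest in JM779-T1.

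JM663-T2 and JM1126 did not share this pattern in full. JM663-T2 had 142.9 CPM of Zeb1 and 1604 of Vim, with Cldn4 at 125.7% of the 18-tumor median. Its Epcam was at 43.6%, Ocln at 38.2%, Cldn3 at 37.5%, Cldn7 at 34.7% and Marveld2 at 25.5% of the median, above the limit of 25%. JM1126 had 82.6 CPM of Zeb1, 12.2 of Twist2 and 1732 of Vim beside its Cldn4 and Epcam. Both were low for Cldn8 alone among the 9 genes.

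Among the epithelial regulators, Grhl2, a grainyhead-like factor, was 24.5 CPM in YZ7, 7.41 in JM1233 and 3.13 in JM779-T1, and JM1126 came next at 34.7. Ovol2, a repressor of Zeb1, had no counts in YZ7 and 0.357 and 0.129 CPM in JM1233 and JM779-T1. The splicing regulator Esrp1 was 6.84, 13.6 and 3.58 CPM in YZ7, JM1233 and JM779-T1, below JM663-T2 at 65.3. YZ7 had 179.0 CPM of Ehf and 74.5 of Elf5, where JM779-T1 had 10.1 and 6.88 and JM1233 39.3 and 7.86. Ehf and Elf5 are Ets factors of epithelial cells.

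Over the 18 tumors, Spearman's rho of a gene with the mean log2 CPM of the 9 genes had a median of 0.78 for the 14 epithelial regulators, 14 above 0, and of -0.64 for the 6 repressors, 5 below 0. The exception was Twist1 (0.34), and Zeb1 was at -0.88. The 26 tight junction partners had a median of 0.57 with 19 above 0, and the 17 adherens junction and desmosome genes a median of 0.70 with 17 above 0. The median over 15188 other protein-coding genes was 0.0031. The 3 low tumors enter every one of these values.

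**Figure D4:**
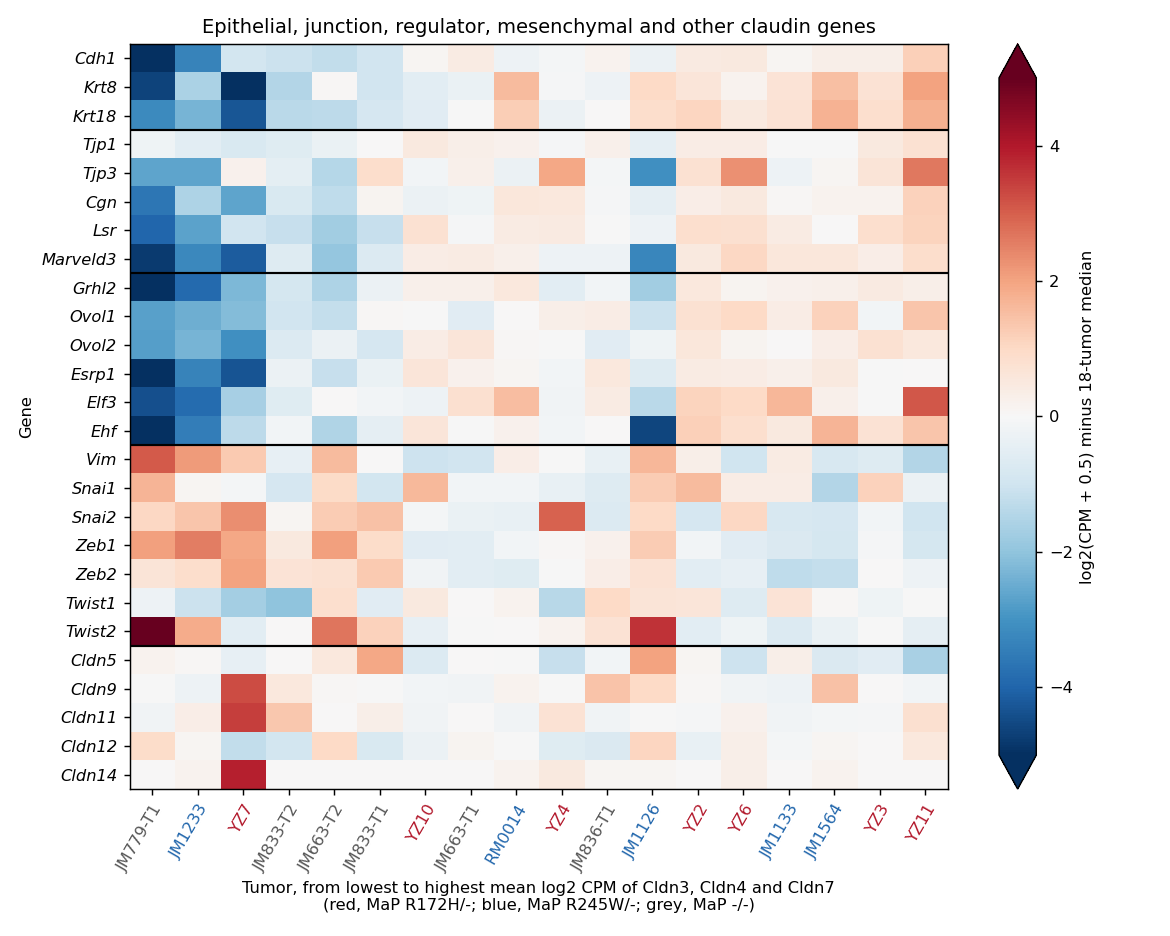
Log2(CPM + 0.5) minus the 18-tumor median (color) for epithelial reference genes, junction partners, epithelial regulators, mesenchymal and repressor genes, and claudins outside the 9 (blocks from top to bottom), with tumors in the order of Cldn3, Cldn4 and Cldn7. Cdh1 of YZ7 lies near that of the tumors to its right, and Cldn9, Cldn11 and Cldn14 stand out in YZ7.

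Among the genes most like the mean of the 9 were Spint1 (rho 0.94), St14 (0.92), Spint2 (0.92), Ovol1 (0.91), Pgcka1 (0.91), Rab25 (0.91), Kcnk1 (0.90), Golga1 (0.90) and Stard10 (0.90). Among the 11 NovaSeq tumors their rho was between 0.88 and 0.95. These tumors, JM1233 and JM779-T1 among them, belong to the set on which the genes were picked. A high rho in them was therefore favored by the choice and is no separate check. St14 encodes the membrane protease matriptase and Spint1 and Spint2 its inhibitors. Spint1 was 7.50 CPM in YZ7, 15.7 in JM779-T1 and 27.5 in JM1233, against a median of 102.0. The 5 least alike were Mtr (-0.93), Zfp382 (-0.92), Ttpal (-0.88), Zcchc24 (-0.88) and Eps15 (-0.88). Mtr, methionine synthase, was 111.5 CPM in JM1233, 98.0 in YZ7 and 74.6 in JM779-T1, the 3 highest values, against a median of 48.9.

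Of the partner lists, none had a gene called in MaP R245W/- against MaP -/- tumors by edgeR. In MaP R172H/- against MaP -/- tumors, 0 of 26 tight junction partners, 0 of 17 adherens junction and desmosome genes, 0 of 7 Epcam partners and 0 of 14 epithelial regulators were called, with medians of 0.62, 0.79, 0.69 and 0.93 on the log2 scale. Of the repressors, Twist2 alone was lower (-4.23, SE 0.96, edgeR FDR 0.016). Its level in MaP R172H/- tumors was at most 0.694 CPM, and the MaP -/- value included the 32.0 CPM of JM779-T1. In MaP R172H/- against MaP R245W/- tumors, Pals1, a polarity scaffold, was lower (-0.71, SE 0.18, edgeR FDR 0.020). Markers of other cells also passed the test, and their part in the comparisons was not tested. The tests of list genes against MaP -/- took the 6 tumors of 4 mice as independent. With tumors of 1 mouse summed, 380 of 21772 genes were called higher and 746 lower in MaP R172H/- tumors. These were 768 and 992 of 20954 with all tumors. Which list genes stayed past the threshold in the summed fit was not looked at. Against MaP -/- tumors, MaP R172H/- tumors had less of the fibroblast markers Lum (-1.98, edgeR FDR 0.025) and Pdgfra (-2.49, edgeR FDR 0.026) and of the mesenchymal gene Fap (-1.19, edgeR FDR 0.015). The fibroblast list was not of 1 direction, with 2 of 7 called lower and 3 of 7 above 0, among them Col1a1 (0.64) and Col1a2 (0.12), which did not pass the test. They also had less Ptprc (-1.24, edgeR FDR 0.018), Adgre1 (-1.04, edgeR FDR 0.0069) and Itgam (-1.48, edgeR FDR 0.011) of leukocytes and less Pecam1 (-0.77, edgeR FDR 0.013) of endothelium. Against MaP R245W/- tumors they had less Lum (-2.60, edgeR FDR 0.034), Adgre1 (-1.31, edgeR FDR 0.030) and Itgam (-1.38, edgeR FDR 0.042). The leukocyte list was not of 1 direction in this comparison, with 2 of 7 called lower and 3 of 7 above 0. The 3 were Cd3e (1.13), Cd79a (0.66) and Cd68 (0.13), which did not pass the test. Of the 7 luminal markers Foxa1 alone was called in this comparison (4.07, edgeR FDR 0.030), while Krt8 (-0.46) and Krt18 (-0.35) did not pass the test. MaP R172H/- tumors also had less of all 5 skeletal muscle markers tested, among them Acta1 (-6.01, edgeR FDR 0.0077) and Mylpf (-3.60, edgeR FDR 0.0032). For Acta1 the difference rested on JM1233 (475.0 CPM), JM1133 (69.4) and JM1126 (17.6). JM1564 (2.28 CPM) and RM0014 (0.716) lay within the MaP R172H/- range of 0.246 to 4.62 CPM.

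Of the 21 other claudins in the table, 7 passed the filter on low counts in each comparison with MaP -/- tumors and 9 in that of the mutants. Cldn5, the endothelial claudin, was called in MaP R172H/- against MaP -/- tumors, with lower levels in the mutant (-1.36, SE 0.39, edgeR FDR 0.046). This FDR, close to the threshold, also took the 6 MaP -/- tumors of 4 mice as independent. Cldn6, an embryonic claudin, was higher in MaP R172H/- than in MaP R245W/- tumors (6.21, SE 1.68, edgeR FDR 0.027). Its level was 44.0 CPM in YZ2, 6.94 in YZ10 and 6.05 in YZ4 and below 1 CPM in the other 15 tumors, so the difference rested on 3 of 7 tumors. Cldn23 had the order of the 9 genes in part, with a rho of 0.72 with their mean, and was 0.0439 CPM in YZ7, 0.268 in JM1233 and 0.775 in JM779-T1, against a median of 2.85. Cldn10 and Cldn2 had a rho of 0.60 and 0.54. Cldn12 was not low in the pattern of the 9 genes: it was 90.8 CPM in JM779-T1 and 50.9 in JM1233, at or above the median of 47.6, and 19.95 in YZ7, the lowest.

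Of the other claudins and junctional adhesion molecules, 4 stood far higher in YZ7 than in the next tumor. Cldn14 was 6.97 CPM in YZ7 and at most 0.198 elsewhere, Cldn11 was 5.70 and at most 0.943, and Cldn9 was 5.22 and at most 1.14. Jam3, a junctional adhesion molecule of the family of F11r, was 39.6 CPM in YZ7 and at most 7.92 elsewhere. These 4 genes were named after their values were seen, and there is no replicate of this tumor.

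By the GRCm39 annotation, Ocln and Marveld2 are also neighbours, 42.9 kb apart on chromosome 13 with no protein-coding gene between them, and their levels had a rho of 0.90 over the 18 tumors. Cldn7 on chromosome 11 overlaps Elp5 on the opposite strand, which reached 52.2 CPM. Cldn3 overlaps the long noncoding RNA Wbscr25 on the opposite strand, which reached 4.65 CPM. The libraries were stranded, and the strand setting used in counting is not given in the sources used here.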

How the data were processed

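Total RNA of 18 mouse mammary tumors was sequenced as stranded, ribosomal RNA-depleted libraries. Per the labels and the methods, the authors checked reads with FastQC 0.11.9, used STAR 2.7.10b for alignment to GRCm39, and obtained gene-level counts from RSEM 1.3.3 with the M34 release of GENCODE. These deposited counts are whole numbers and are not normalized. Identifiers of 56620 of the 57126 genes were found in GENCODE M39, and 506 were not. All columns were mapped to labelled tumors, and groups came from the labelled genotype.

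The counts were analysed in R 4.3.3 with edgeR 4.0.16: TMM scaling, filterByExpr, the quasi-likelihood test and Benjamini-Hochberg FDR over all genes tested, with calls at an FDR below 0.05. Each mutant group was fitted with the MaP -/- tumors, and the mutants were compared in a fit of all 18 tumors. The study used DESeq2, which was an alternative here (1.42.0). CPM use TMM library sizes over 18 tumors, log values use log2(CPM + 0.5), and medians, correlations and sequence windows were computed in Python 3.11.15 with pandas 2.3.3. SE are those of the edgeR log2 fold change. The labels do not say that tumors of 1 group are independent beyond the mouse, and 2 MaP -/- mice gave 2 tumors each, which were also summed per mouse as an alternative. Total counts were between 23113578 and 37365062, so a level of 1 CPM stands for over 20 counts and most values are limited by the spread between tumors.

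The members and lists were chosen with earlier results of these data known. Named genes were the 9 members, Cdh1, Krt8, Krt18 and Vim, the repressors, list genes past the threshold (at most 4 per list and comparison, by the size of the change), and the 10 most and 5 least alike genes by Spearman's rho, of which 1 of the most alike is not reported here. Alternatives were DESeq2 size factors, the DESeq2 Wald test, other filters, protein-coding genes alone, tumors of 1 mouse summed, other fit samples, each tumor left out, and other limits for the claudin-low description. The exact rank sum test and leaving out the mutant tumors with a low Trp53 level were chosen after seeing the data. The edgeR test was tested on simulated data.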

Additional observations from a re-analysis of the deposited data

Results flagged for a closer look

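A single tumor of each genotype lay far below the rest for several junction and keratin genes. The measure was the gap between the lowest tumor and its nearest neighbour, as a share of the whole range of the group on the log2 CPM scale, held against Dixon's 95% limit for the size of the group. Of 39 pairs of a gene and a genotype (the 9 genes with Cdh1, Krt8, Krt18 and Vim), 19 were past the limit, and each was a lowest tumor. Of these, 12 were pairs of the 9 junction genes. Chance passes this limit in about 1 of 20 groups, but the tumors had been set apart by these same values, so the count restates that description and is no test of it. The tumors were YZ7 in 7 pairs, JM1233 in 6 and JM779-T1 in 6. The genes share the same tumors, so the 19 are not independent.

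In the MaP R172H/- group YZ7 stood apart for Cldn3 (0.584), Cldn7 (0.746), Ocln (0.709), Epcam (0.787), Marveld2 (0.762), Krt8 (0.643) and Krt18 (0.609). Its Cdh1 was not past the limit. In the MaP R245W/- group JM1233 stood apart for Cldn3 (0.848), Cldn4 (0.734), Epcam (0.790), Cdh1 (0.832), Krt8 (0.716) and Krt18 (0.746). In the MaP -/- group JM779-T1 stood apart for Cldn1 (0.641), Cldn3 (0.691), Cldn7 (0.665), Epcam (0.773), Cdh1 (0.729) and Krt8 (0.681). Epcam, Cldn3 and Krt8 were past the limit in all 3 genotypes. In MaP R172H/- tumors, neither the lowest Cldn4 (1.93 CPM in YZ7, 0.489) nor the highest (1362 CPM in YZ11, 0.268) was past the limit of 0.568.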

How the results depend on the processing

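The 3 claudin-low tumors were the same with a limit of 12.5% of the median, with at least 5 of the 9 genes, with Cldn3, Cldn4 and Cldn7 alone, with the median of the MaP R172H/- tumors and with DESeq2 size factors. A limit of 50% of the median gave 5 tumors. Of the 9 genes, 1 (Cldn3) was called in MaP R172H/- against MaP -/- tumors with the DESeq2 Wald test. With each tumor left out, edgeR called 0 to 1 of the 9, the 1 being without YZ7. The cause was not tested. Over all genes, the DESeq2 Wald test called 1447 of 30307 higher and 1978 lower. Without YZ7, edgeR called 827 of 20716 higher and 1039 lower. In the other comparisons the count among the 9 genes was 0 under every alternative. Scaling on protein-coding genes alone moved the median of all genes by -0.10 in MaP R245W/- against MaP -/- tumors. At least 10 counts in every tumor removed Cldn8. With each tumor left out, 363 of the gene values kept their direction and side of the threshold and 14 reversed; under the other alternatives these were 226 and 13.

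All reversals were in MaP R172H/- against MaP R245W/- tumors, for 6 genes whose values with all tumors ran from -0.17 (Cldn8) to 0.60 (Cldn4) and did not pass the test. With each tumor left out, Cldn4 ran from -0.79 to 1.15, Cldn7 from -0.33 to 0.47, Cldn8 from -0.70 to 0.25, Ocln from -0.017 to 0.52, Marveld2 from -0.16 to 0.34 and F11r from -0.15 to 0.32. Without YZ11, JM1233 and RM0014, Cldn4 was -1.23, Ocln -0.21, Marveld2 -0.21 and F11r -0.22. As a difference of medians beside the exact rank sum test, Cldn4 was -0.58, Cldn7 0.46, Ocln -0.29, Marveld2 -0.15 and F11r -0.025. Cldn7 was 0.0082 without a filter on low counts, 0.022 with at least 10 counts in every tumor, 0.051 with protein-coding genes alone and 0.0090 with tumors of 1 mouse summed.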
